A study of Sus scrofa with 6 samples.

Results

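Of the 14900 mRNAs measured in the skin of Bama pigs, 5 genes of the insulin response and of glyceroneogenesis in fat are described here: GHR, IRS1, PDE3B, PC and PCK1. They were chosen by symbol, from the identifiers that the study's supplementary lists of mRNAs pair with symbols. Each of the 5 was found once in the table. All 5 were chosen with their difference between white and black skin in view, so that difference is given as a description. Where limma's calls or p-values of the 5 are counted, the counts are not read as a test of them. The tissue was skin cut 8 mm deep from 3 adult female pigs of 2 years, of a breed with black head and hip and a white belt, and its poly(A) RNA was sequenced. Each pig gave 1 sample of white skin, from the back, and 1 sample of black skin, from the buttock (n = 3 per skin). White skin of this breed lacks melanocytes, and no agent or genetic change was applied to either skin. Color and site of the skin changed together, so their effects cannot be told apart.

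Insulin binds its receptor on fat cells, and the receptor passes the signal on through insulin receptor substrates, of which IRS1 is the main one in adipocytes. One end of that pathway is PDE3B, a phosphodiesterase that breaks down cyclic AMP and so restrains the release of fatty acids from stored triglyceride. Growth hormone acts on fat in the opposite direction through its receptor, GHR. To store fatty acids, an adipocyte needs glycerol 3-phosphate. Glyceroneogenesis makes it from pyruvate: pyruvate carboxylase (PC) forms oxaloacetate in mitochondria, and the cytosolic phosphoenolpyruvate carboxykinase (PCK1) turns oxaloacetate into phosphoenolpyruvate. None of the 5 genes is used by fat alone.

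All 5 genes were lower in white skin than in black skin in each of the 3 pigs, and for none of them did the 3 white samples overlap the 3 black samples. The mean was between 3.02-fold (IRS1) and 5.80-fold (PCK1) higher in black skin. Of all mRNAs, 41.6% were lower in white skin in all 3 pigs and 25.7% had all white samples below all black samples, and since the 5 were chosen on this contrast, their count is read as no more than a description. The values are FPKM, in which the authors scaled the reads of a gene by its transcript length and by the mapped reads of the library, so levels of different genes can be set side by side. Read depth is not known from these values, and intervals for counting error could not be computed. In whole skin, fewer cells of a type and less RNA per cell cannot be told apart.

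The receptor gene GHR (ENSSSCG00000016866, RefSeq locus chr16:27126300-27422618, Sscrofa11.1) had 2.82, 1.54 and 4.62 FPKM in the white skin of pigs 1, 2 and 3. In black skin it had 12.5, 7.94 and 31.5 FPKM in the same order. Every black sample was above every white sample, the lowest black value being 1.72 times the highest white one, and pig 3 was highest in both skins. The means were 2.99 ± 1.54 FPKM in white and 17.3 ± 12.5 FPKM in black skin (SD, n = 3 each), a 5.78-fold difference. On the log2(FPKM + 0.5) scale the difference, white minus black, was -2.22 (SE 0.53), and 0.711% of all mRNAs had a lower value. Within pigs 1, 2 and 3, black skin had 4.42, 5.15 and 6.82 times the level of white skin.

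IRS1 (ENSSSCG00000025729, chr15:128245846-128307321) had 1.51, 0.508 and 0.739 FPKM in white skin and 2.00, 3.60 and 2.74 FPKM in black skin of pigs 1 to 3. The skins did not overlap, but in pig 1 they lay close, with a ratio of 1.32, against 7.10 in pig 2 and 3.71 in pig 3. The means were 0.920 ± 0.527 FPKM and 2.78 ± 0.801 FPKM (SD, n = 3 each), with a log2 difference of -1.24 (SE 0.35). Among the 5 genes IRS1 had the smallest fold difference between the means.

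PDE3B (ENSSSCG00000013388, chr2:44416934-44614075) had 0.820, 0.427 and 1.10 FPKM in white skin and 3.21, 2.32 and 7.34 FPKM in black skin of pigs 1 to 3. The lowest black sample was 2.11 times the highest white one, the widest gap among the 5 genes. The means were 0.783 ± 0.339 FPKM and 4.29 ± 2.68 FPKM (SD, n = 3 each), a 5.48-fold difference and a log2 difference of -1.80 (SE 0.43). As for GHR, the ratio of black to white skin was lowest in pig 1 (3.91) and highest in pig 3 (6.66).

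The first enzyme of glyceroneogenesis, PC (ENSSSCG00000012926, chr2:5566608-5587797), had 30.1, 28.2 and 35.7 FPKM in white skin of pigs 1 to 3. In black skin it had 86.6, 63.3 and 221.9 FPKM. The white samples lay within 1.27-fold of each other, whereas the black ones spanned 3.51-fold because of the sample of pig 3. The means were 31.4 ± 3.91 FPKM and 123.9 ± 85.6 FPKM (SD, n = 3 each), a 3.95-fold difference and a log2 difference of -1.76 (SE 0.43). PC was the most abundant of the 5 in every sample, above 88.5% of all mRNAs by its mean in white skin and above 97.3% in black skin.

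PCK1 (ENSSSCG00000007507, chr17:57930507-57936523) was the least abundant of the 5 by its mean in both skins. It had 0.283, 0.10 and 0.409 FPKM in white skin and 1.15, 0.832 and 2.61 FPKM in black skin of pigs 1 to 3. All 3 white samples were below 0.5 FPKM, the level above which the study counted an mRNA as expressed, and all 3 black samples were above it. The means were 0.264 ± 0.155 FPKM and 1.53 ± 0.949 FPKM (SD, n = 3 each). The ratio of the means was 5.80, but the log2 difference was -1.33 (SE 0.38), because the 0.5 added before taking logs shrinks the change of a gene at this level.

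**Figure D1:**
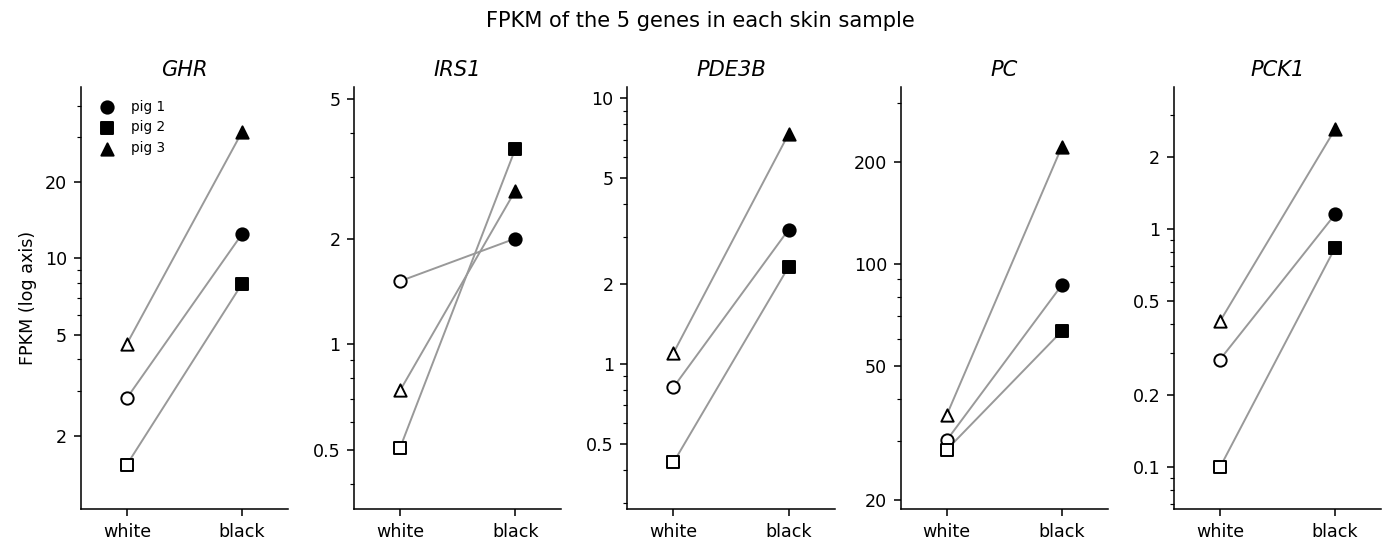
FPKM (log axis, a separate scale for each gene) of the 5 genes in white skin (open symbols) and black skin (filled symbols), with a line joining the samples of each pig. Every line rises from white to black. The lines of GHR, PDE3B, PC and PCK1 keep the order of the pigs, and those of IRS1 cross.

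mRNAs were taken as differentially expressed where limma gave an adjusted p (Benjamini-Hochberg over all 14900 mRNAs) below 0.05 and an absolute log2 difference above 1. By this rule 3 of the 5 genes, GHR, PDE3B and PC, were called lower in white skin, where 3.62% of all mRNAs were called lower. With the pig as a block PCK1 was called too, which made 4 of 5, beside 6.42% of all mRNAs, and IRS1 was called in neither fit. Since the genes were chosen on this contrast, these counts place them among the other mRNAs and nothing is read from them. PCK1 and IRS1 passed the limit on the fold but not the one on the adjusted p. The median log2 difference of the 5 was -1.76, where the median of all mRNAs was -0.31 and 69.1% of them were below 0. With any 1 of the 6 samples left out, limma called 0 of the 5. In each of these fits, as in the full one, all 5 had an unadjusted p under 0.05. Nothing is read from this either, since the genes were chosen on this contrast. Of all mRNAs, 20.6% were lower at that p in the full fit and 12.5% to 22.0% in the fits without 1 sample. Without black skin of pig 3 the log2 difference of IRS1 stayed at -1.24 and those of the other 4 genes shrank, to -1.68 for GHR, -1.37 for PDE3B, -1.23 for PC and -0.98 for PCK1, and 53 mRNAs in all were called lower in place of 539.

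The 6 samples stood in the same order for 4 of the 5 genes. GHR, PDE3B, PC and PCK1 were highest in black skin of pig 3, then pig 1, then pig 2, followed by white skin of pig 3, pig 1 and pig 2. This order of the 6 samples was seen in 298 mRNAs, 2.0% of all. IRS1 had another order, with black skin of pig 2 highest, then pig 3 and pig 1, and white skin of pig 1 above pig 3 and pig 2, an order seen in 169 mRNAs (1.13%). Black skin of pig 3 was the highest sample for 31.6% of all mRNAs, and the FPKM of its mRNAs summed to 408598, the lowest sum of the 6 samples, which reached 501424. Between black skin of pig 3 and of pig 1, the ratio was 2.52 for GHR, 2.29 for PDE3B, 2.56 for PC and 2.27 for PCK1, but 1.37 for IRS1. In white skin the largest value was 2.99 times the smallest for GHR, 2.98 for IRS1, 2.58 for PDE3B and 4.09 for PCK1, all wider than the 1.27 of PC.

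How closely the genes kept their ratio differed from pair to pair. GHR exceeded PDE3B by 1.77 to 2.10 on the log2(FPKM) scale over the 6 samples, a spread (SD) of 0.141. The other pairs among GHR, PDE3B and PCK1 had an SD of 0.247 and 0.252. Pairs with PC had an SD of 0.484 (PDE3B) to 0.867 (IRS1), and IRS1 against GHR, PDE3B and PCK1 gave 1.02, 0.886 and 0.986. These are 6 values over 3 pigs and 2 skins and are given as a description. In level, PC stood first and GHR second by their means in both skins. In white skin, the ranges of IRS1 and PDE3B overlapped, so that their order is not set. In black skin PDE3B and IRS1 overlapped as well, and the highest PCK1 value (2.61 FPKM) lay within the range of both.

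Fat cell markers stood lower in white skin as well. Of the 20 adipocyte symbols listed, 18 had a row, and 16 of these had a lower log2 mean in white skin. limma called 7 of the 18 lower and 0 higher in white skin (3.62% of all mRNAs were called lower), and the median log2 difference was -1.86. At an unadjusted p under 0.05 there were 14 of the 18, of which 13 were lower (20.6% of all mRNAs were). The FPKM of the 18 summed to between 460 and 959 in white skin and between 1542 and 3122 in black skin. Adiponectin, ADIPOQ, a hormone made by fat cells, had 22.8, 10.5 and 32.6 FPKM in white and 115.3, 53.4 and 161 FPKM in black skin of pigs 1 to 3. The skins did not overlap, and black skin of pig 3 was again highest. Its log2 difference was -2.30 (SE 0.50, limma adjusted p = 0.039). The fatty acid carrier FABP4 differed by -2.30 (adjusted p = 0.044), the leptin gene LEP by -2.22 (adjusted p = 0.028), and the lipid droplet proteins CIDEC and PLIN1 by -2.44 (adjusted p = 0.020) and -2.28 (adjusted p = 0.043), each in limma's fit over all mRNAs. CFD, the serine protease adipsin, was among the most abundant of the list and differed by -1.15 (SE 0.33, limma adjusted p = 0.076), with all white samples (111.1 to 196.6 FPKM) below all black ones (212.8 to 455.1 FPKM).

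Of the 18 adipocyte genes, 15 were highest in black skin of pig 3, and 9 had the full sample order of GHR, PDE3B, PC and PCK1. The exceptions in direction were PPARG and CEBPA, transcription factors of fat cells that other skin cells also use. Whether other skin cells use the remaining genes of the list as well was not examined. PPARG had means of 18.9 ± 8.43 FPKM in white and 17.7 ± 15.2 FPKM in black skin, and the samples of both skins overlapped. CEBPA had 49.7 ± 1.26 FPKM in white and 36.4 ± 4.03 FPKM in black skin, with all white samples above all black ones, but was not called (limma adjusted p = 0.17). SLC2A4, the insulin-responsive glucose transporter of fat and muscle, had 4.63 ± 0.932 FPKM in white and 6.45 ± 0.983 FPKM in black skin and was not called either (limma adjusted p = 0.29). These 3 genes were picked after their values were seen. The count of called adipocyte genes was 11 with the pig as a block. It was 1, 0 and 4 without white skin of pig 1, 2 or 3 and 3, 3 and 2 without black skin of pig 1, 2 or 3; without white skin of pig 2, 12 of the 18 had an unadjusted p under 0.05.

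**Figure D2:**
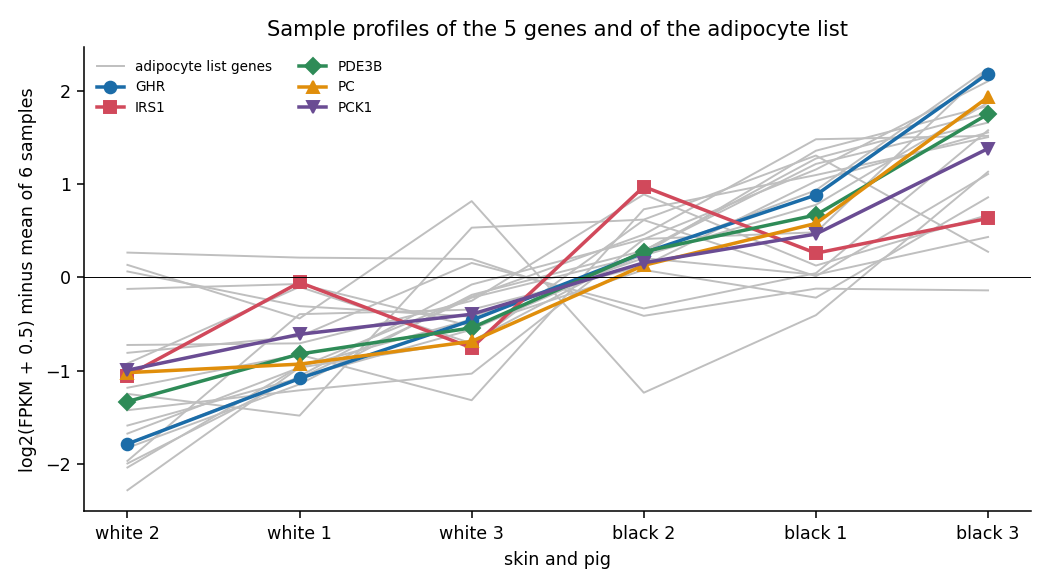
log2(FPKM + 0.5) of each gene minus its own mean over the 6 samples, with the samples in the order in which most of the 5 genes stood and the 18 adipocyte list genes as grey lines. GHR, PDE3B, PC and PCK1 climb from white skin of pig 2 to black skin of pig 3 together with most grey lines, and IRS1 peaks in black skin of pig 2.

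Each of the 5 genes was then set against the mean log2(FPKM + 0.5) of the 18 adipocyte genes in the same sample. That mean was 4.29 ± 0.44 in white and 5.76 ± 0.57 in black skin (SD, n = 3 each), a difference of -1.47. Relative to it, the difference between the skins became -0.75 for GHR, -0.33 for PDE3B, -0.29 for PC, 0.13 for PCK1 and 0.23 for IRS1. All 3 white samples remained below all 3 black samples for GHR (-2.82 to -2.38 against -2.16 to -1.37) and for PDE3B (-4.05 to -3.89 against -3.78 to -3.40). For PC, IRS1 and PCK1 the skins overlapped on this scale. These differences depend on the pseudocount for the low genes. With 0.1 in place of 0.5, chosen after seeing the data, they were -0.88 for GHR, -0.73 for PDE3B, -0.27 for PC, -0.61 for PCK1 and -0.082 for IRS1, and all white samples of PCK1 were then below all black ones. With 1, also chosen after seeing the data, they were -0.62, -0.040, -0.31, 0.49 and 0.44 in the same order, and the skins overlapped for PDE3B. GHR alone among the 5 had all white samples below all black ones, and PC and IRS1 overlapped, with all 3 pseudocounts. The result also rests on the make-up of the list, whose mean takes in 16 genes with a log2 difference below 0 and PPARG and CEBPA above 0. The median difference of the 18 was -1.86, and PLIN1 differed by -2.28, near the -2.22 of GHR. A change of GHR beyond that of fat cells was not tested. The adipocyte list was assembled with results of these data known, and the subtraction describes the samples without saying what part fat cells have in the difference.

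**Figure D3:**
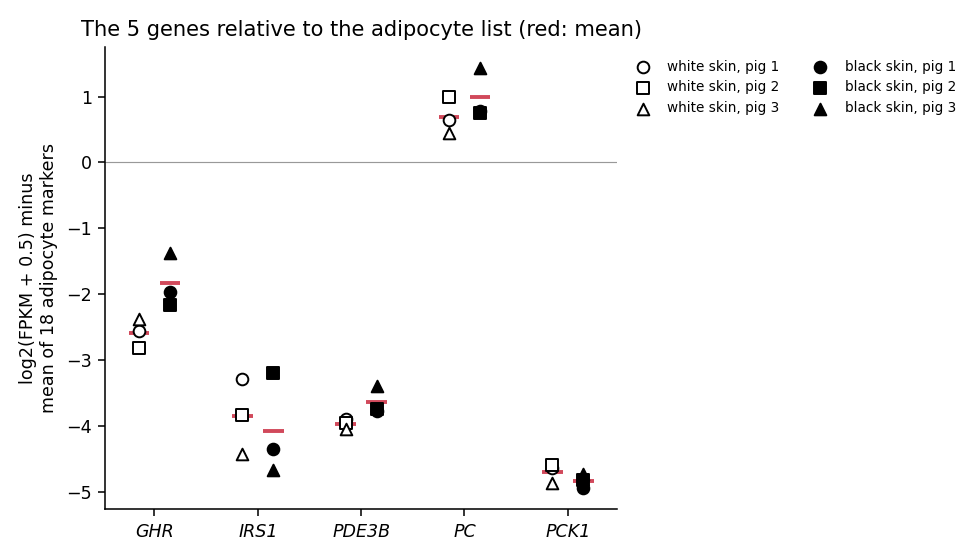
log2(FPKM + 0.5) of each of the 5 genes minus the mean of the 18 adipocyte markers in the same sample, in white skin (open) and black skin (filled), with a symbol for each pig and a red bar for the mean. GHR and PDE3B still lie higher in all black samples, whereas the skins overlap for IRS1, PC and PCK1. With a pseudocount of 0.1 PCK1 does not overlap, and with 1 PDE3B does. The mean takes in PPARG and CEBPA, whose log2 difference was above 0, so the values rest on the make-up of the list.

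Markers of other cells in the skin also differed. Of 9 endothelial markers, 4 were called lower in white skin (3.62% of all mRNAs were), and the sum of the 9 was 66.0 to 73.2 FPKM in white and 124.9 to 284.8 FPKM in black skin. All 9 had a log2 difference below 0, with a median of -1.85, close to the -1.86 of the adipocyte list. Of 8 fibroblast markers 2 were called lower (sums of 2282 to 4839 against 6009 to 10331 FPKM), and of 9 macrophage markers 1 was (26.8 to 68.8 against 70.1 to 161.5 FPKM). Of 6 keratinocyte markers limma called 0, with 1 at an unadjusted p under 0.05, and their sums overlapped (469 to 1134 against 936 to 1317 FPKM). Every measured fibroblast, macrophage and keratinocyte marker had a log2 difference below 0 (medians of -1.39, -1.23 and -0.62), as did 69.1% of all mRNAs. Of 10 measured sebaceous gland markers 2 were called higher in white skin (KRT79 and MGST1; 2.62% of all mRNAs were called higher), and these carried most of the sum, 1434 to 1787 FPKM in white and 187 to 317 FPKM in black skin. As a list the sebaceous markers had no common direction. Of the 10, 5 had a log2 difference below 0, the median was -0.0019, and SOAT1, MC5R and FAR2, picked after their values were seen, had all white samples below all black ones. Of 22 skeletal muscle symbols listed only 10 had a row, and those without included MYH1, MYH2, MYH4, MYH7 and TTN. Of the 10, 3 were called higher in white skin (CKM, PYGM and ACTN2; 2.62% of all mRNAs were called higher). These carried most of the sum in white skin, 75.1 to 124.2 against 26.4 to 28.3 FPKM in black. The other way went 2 of the 10, TNNI2 (-1.24) and TCAP (-0.70), and TCAP had all white samples below all black ones. The muscle actin ACTA1, picked after its values were seen, was at most 1.77 FPKM in any sample. With the pig as a block 6 endothelial, 4 fibroblast and 4 macrophage markers were called. Upper-quartile scaling and quantile normalization each left 1 endothelial and 0 macrophage markers. At an unadjusted p under 0.05 each left 6 and 4, all lower (13.0% and 10.3% of all mRNAs were lower in the 2 fits). Without 1 sample the endothelial count was 7 (black skin of pig 1), 1 (white skin of pig 3) or 0 (each of the other 4), with 5 to 9 at an unadjusted p under 0.05. The fibroblast count was 1 without white or black skin of pig 1 and 0 without any of the other 4, and the macrophage count was 1 without black skin of pig 2 and 0 without any of the other 5, with at least 4 and 3 markers at that unadjusted p. The part of these cell types in the levels of the 5 genes was not tested.

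The genes around IRS1 in insulin signalling differed in the same direction but less. Of 31 symbols listed 28 were measured, 26 of them had a log2 difference below 0, and the median was -0.78. limma called 2 lower and 0 higher (3.62% of all mRNAs were called lower). At an unadjusted p under 0.05 there were 15, of which 14 were lower (20.6% of all mRNAs were). Of the 28, 14 had all white samples below all black ones (25.7% of all mRNAs did). PDE3A, the paralog of PDE3B best known from heart and vessels, had 0.346 ± 0.119 FPKM in white and 1.76 ± 0.695 FPKM in black skin (log2 difference -1.38, SE 0.32, limma adjusted p = 0.046). TBC1D4, which controls the movement of glucose transporters to the surface and was among the most abundant genes of the list, had 51.7 ± 7.87 FPKM in white and 41.9 ± 8.95 FPKM in black skin and was not called.

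The insulin receptor gene itself, INSR, had 2.24 ± 1.29 FPKM in white and 4.25 ± 1.15 FPKM in black skin, and IRS2, the other widely used substrate, had 2.04 ± 0.214 and 3.75 ± 2.39 FPKM. The skins overlapped for both, and neither was called (limma adjusted p = 0.21 and 0.36). Both were picked after their values were seen. The count of called insulin signalling genes was 4 without black skin of pig 1 and 0 without any of the other 5 samples. In those 5 fits 8 to 14 genes had an unadjusted p under 0.05, 7 to 13 of them lower (12.5% to 19.9% of all mRNAs were lower). The called count was also 0 after upper-quartile scaling and after quantile normalization. At an unadjusted p under 0.05 there were 10 and 7, of which 8 and 6 were lower (13.0% and 10.3% of all mRNAs were).

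Of 21 genes of growth hormone and IGF signalling, 18 were measured and 17 had a log2 difference below 0 (median -0.90). limma called 3 lower in white skin and 0 higher (3.62% of all mRNAs were called lower). At an unadjusted p under 0.05 there were 10, all lower (20.6% of all mRNAs were). IGFBP3, the main carrier of IGF1 in blood and a gene induced by growth hormone in liver, had 2.37, 1.07 and 3.79 FPKM in white and 8.43, 9.24 and 31.6 FPKM in black skin of pigs 1 to 3. Like GHR, it was highest in black skin of pig 3 by a wide margin (log2 difference -2.39, SE 0.56, limma adjusted p = 0.046). The leptin receptor gene LEPR had 0.156 ± 0.035 FPKM in white and 1.59 ± 0.854 FPKM in black skin (log2 difference -1.59, SE 0.35). IGFBP5, another IGF-binding protein, had 17.1 ± 3.48 and 55.1 ± 28.9 FPKM (log2 difference -1.56, SE 0.37).

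The most abundant of this list were IGFBP6 and IGFBP7, neither of them called. IGFBP6 had 117.7 ± 25.5 FPKM in white and 283 ± 105.2 FPKM in black skin without overlap, and IGFBP7 had 103.4 ± 16.6 and 119.1 ± 28.9 FPKM with overlap. The kinase JAK2, which GHR uses, had 6.07 ± 0.815 and 8.90 ± 1.14 FPKM and was not called, whereas STAT5B, the transcription factor that JAK2 activates, had 5.88 ± 1.29 and 15.5 ± 6.50 FPKM and was called with the pig as a block only. JAK2 and STAT5B were picked after their values were seen. The count of called genes was 5 with the block. It was 0 without white skin of pig 1, 2 or 3 or black skin of pig 3 (7 to 10 genes at an unadjusted p under 0.05), and 1 without black skin of pig 2. Upper-quartile scaling left 1 and quantile normalization left 0. In each of these 2 fits 7 genes had an unadjusted p under 0.05, all lower (13.0% and 10.3% of all mRNAs were).

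The enzymes and carriers around PC and PCK1 differed in both directions. Of 21 genes of glyceroneogenesis and pyruvate handling, 18 were measured, and 5 had a log2 difference below 0, with a median of 0.39. limma called 0 lower and 1 higher in white skin (3.62% and 2.62% of all mRNAs were). At an unadjusted p under 0.05, 2 were lower and 5 higher (20.6% of all mRNAs were lower). Of the 18, 6 had all white samples above all black ones (9.62% of all mRNAs did) and 2 had them below (25.7% of all mRNAs did). The called gene was MDH2, the mitochondrial malate dehydrogenase, with 110.7, 165.2 and 79.4 FPKM in white and 39.7, 30.6 and 35.5 FPKM in black skin of pigs 1 to 3. All white samples were far above all black ones. Its log2 difference was 1.68 (SE 0.29, limma adjusted p = 0.023).

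The cytosolic malate dehydrogenase MDH1 and the lactate dehydrogenase subunit LDHA were the most abundant of the list and were not called. MDH1 had 108.9 ± 18.8 FPKM in white and 81.4 ± 15.1 FPKM in black skin, and LDHA had 175.5 ± 33.7 and 144 ± 48 FPKM. PCK2, the mitochondrial counterpart of PCK1, had 4.26, 1.96 and 3.06 FPKM in white and 2.26, 1.20 and 3.48 FPKM in black skin of pigs 1 to 3. It was above PCK1 in every sample, and its skins overlapped (log2 difference 0.39, SE 0.40, limma adjusted p = 0.54). GPD1, which makes glycerol 3-phosphate from a glycolytic intermediate, had 10.8 ± 2.19 and 24.3 ± 6.33 FPKM, with all white samples below all black ones. It was called lower with the pig as a block only, as were PDK4, an inhibitor of pyruvate dehydrogenase (7.32 ± 11.1 and 32.3 ± 36.4 FPKM), and the glycerol channel AQP3 (16.0 ± 8.34 and 44.1 ± 15.5 FPKM). PCK2, GPD1, PDK4 and AQP3 were picked after their values were seen. The count of called genes was 4 with the block, 2 without black skin of pig 1 and 0 without white skin of pig 1 or 2 or black skin of pig 2 or 3 (4 to 7 at an unadjusted p under 0.05).

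In triglyceride and fatty acid synthesis, where the glycerol 3-phosphate is used, genes were called in both directions. Of 20 symbols 18 were measured, with 3 called lower and 2 higher in white skin and a median log2 difference of -0.32. Of all mRNAs, 3.62% were called lower and 2.62% higher. GPAM, which adds the first fatty acid to glycerol 3-phosphate, had 57.9, 83.5 and 60.3 FPKM in white and 4.10, 3.23 and 3.70 FPKM in black skin of pigs 1 to 3. The skins were far apart (log2 difference 4.01, SE 0.23, limma adjusted p = 0.00088). The desaturase SCD had 7493 ± 2518 FPKM in white and 1153 ± 285 FPKM in black skin (log2 difference 2.67, SE 0.35). Both are also active in sebaceous glands, whose summed markers, carried by KRT79 and MGST1, were higher in white skin while the list had no common direction, and the part of these glands was not tested.

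DGAT2, which adds the last fatty acid to make triglyceride, stood the other way, with 22.5, 17.5 and 15.9 FPKM in white and 87.0, 67.3 and 115.4 FPKM in black skin of pigs 1 to 3. The highest white sample was below every black one, and the log2 difference was -2.22 (SE 0.26, limma adjusted p = 0.011). The lipase LPL, through which fat cells take up fatty acids from blood, differed by -2.11 (SE 0.47, limma adjusted p = 0.042) and the elongase ELOVL5 by -1.69 (SE 0.27, limma adjusted p = 0.018). DGAT2 and LPL are also on the adipocyte list, as is THRSP of this list. LIPE and PNPLA2 of lipolysis, GPD1 of glyceroneogenesis and SLC2A4 of insulin signalling are shared with it too. The counts of these lists and of the adipocyte list are therefore not separate results. FASN, the fatty acid synthase and one of the most abundant genes of the list, had 312.1 ± 167.1 FPKM in white and 144.5 ± 23.0 FPKM in black skin and was not called. The count of called genes was 3, 1 and 8 without white skin of pig 1, 2 or 3 and 3 without black skin of pig 3.

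Genes of lipolysis, which PDE3B restrains, and of its control were called in the direction of PDE3B only. The list mixes genes that promote lipolysis with genes that restrain it. Of 21 symbols 18 were measured, 15 had a log2 difference below 0, and the median was -1.23. limma called 4 lower and 0 higher (3.62% of all mRNAs were called lower). At an unadjusted p under 0.05 there were 12, all lower (20.6% of all mRNAs were). Besides CIDEC and PLIN1, which the adipocyte list holds too, the called genes were NPR1 and ADCY2. NPR1, the receptor through which natriuretic peptides start lipolysis, had 5.41 ± 1.23 FPKM in white and 21.7 ± 10.4 FPKM in black skin (log2 difference -1.81, SE 0.38). ADCY2, an adenylyl cyclase that makes cyclic AMP, had 0.856 ± 0.242 and 4.28 ± 2.49 FPKM (log2 difference -1.71, SE 0.40). Both lipases with the highest mean were not called. MGLL, which acts on monoglycerides, had 54.2 ± 11.4 and 43.8 ± 12.6 FPKM, and PNPLA2, which starts the breakdown of triglyceride, had 50.9 ± 8.36 and 74.2 ± 30.2 FPKM, with overlap in both. LIPE, the hormone-sensitive lipase, which was picked after its values were seen, had 13.1 ± 8.65 and 59.8 ± 47.0 FPKM, with all white samples below all black ones (log2 difference -2.09, SE 0.60, limma adjusted p = 0.075), and was called with the pig as a block only. The count was 9 with the pig as a block, 0 without white skin of pig 1, 2 or 3 (9 to 12 at an unadjusted p under 0.05) and 1 without black skin of pig 2 or 3. It was 2 after upper-quartile scaling and 1 after quantile normalization.

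**Figure D4:**
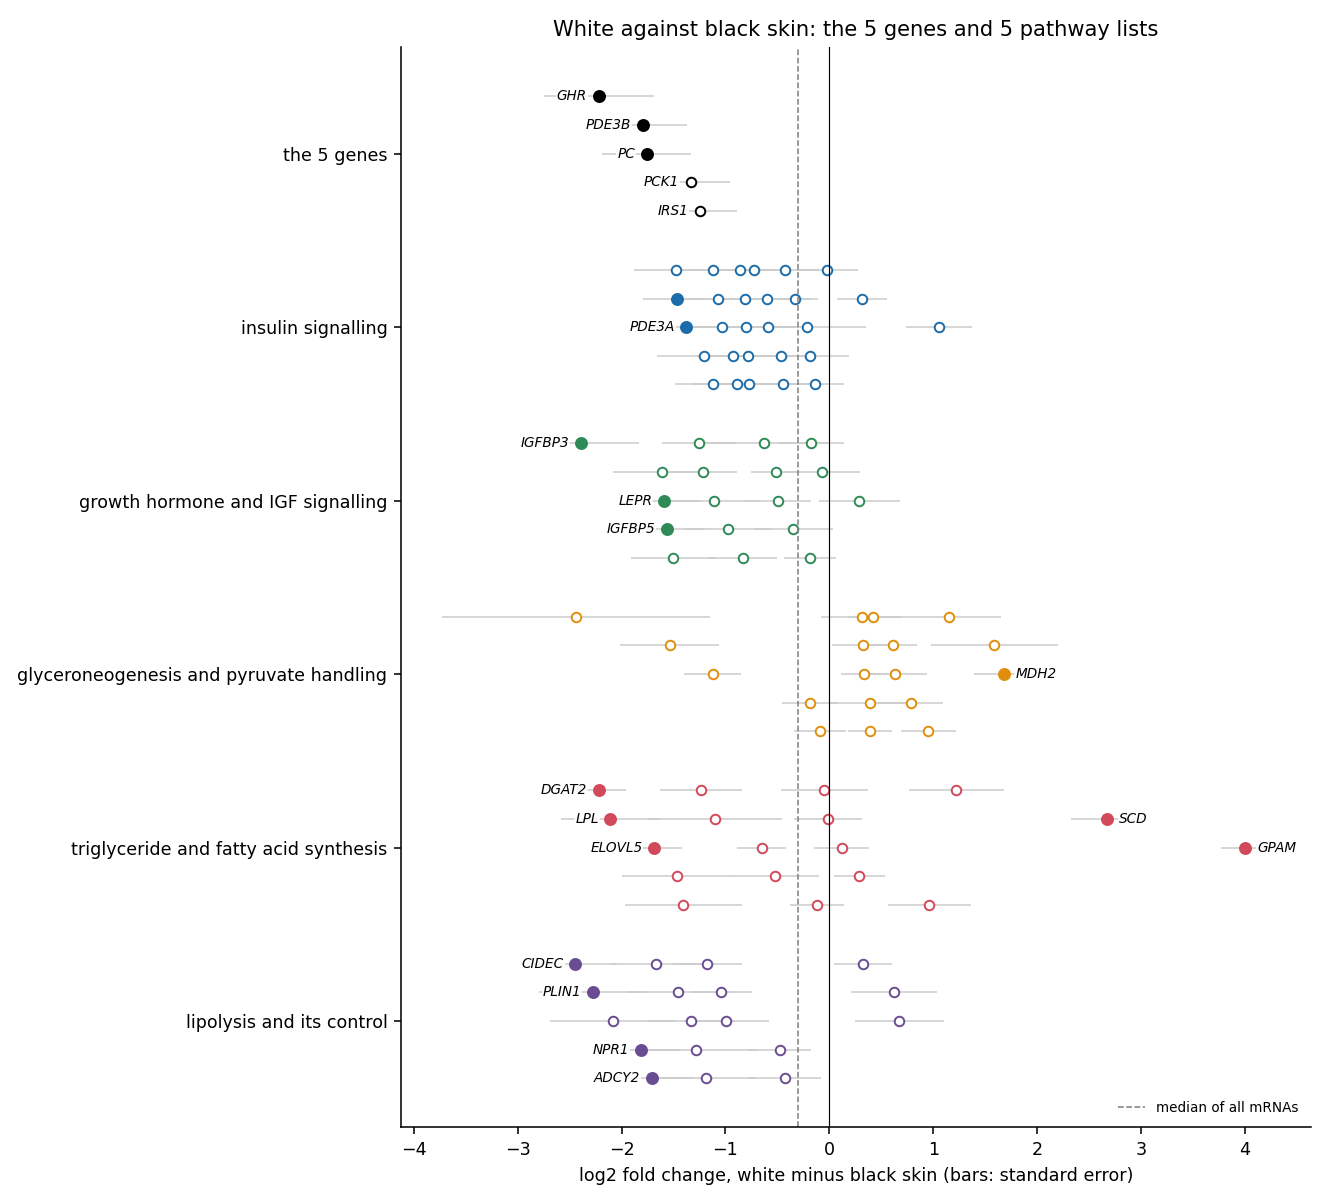
log2 difference (white minus black skin, on log2(FPKM + 0.5)) of the 5 genes and of each measured gene of 5 pathway lists, with bars for the standard error, filled points for genes called by limma, most of them labelled, and a dashed line at the median of all mRNAs (-0.31). Insulin, growth hormone and lipolysis genes lie mostly left of 0, glyceroneogenesis genes mostly right of it, and GPAM and SCD lie farthest right.

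The mRNAs whose profile over the 6 samples lay closest to each gene were found by the root mean square distance of log2(FPKM + 0.5), centred on its mean, among 10851 named mRNAs (10852 for PCK1) with a mean of at least 1 FPKM. Closest to GHR was PLIN1, the coat protein of fat droplets, at a distance of 0.052, with 14.5, 8.70 and 20.9 FPKM in white and 59.9, 37.0 and 148.7 FPKM in black skin of pigs 1 to 3. PLIN1 lay above GHR by a similar factor in every sample. TUSC5 (0.185), a fat cell gene of glucose transporter traffic, and MFNG (0.226) followed. For PDE3B the closest were NID1 (0.102), a basement membrane protein, CYBRD1 (0.102), an iron reductase, and ALDH1L2 (0.131), a mitochondrial folate enzyme.

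For PC the closest were the potassium channel gene KCNA5 (0.144), PDE3B itself (0.178) and the growth factor BMP2 (0.189). PCK1 was closest to SLCO2B1 (0.094), an organic anion transporter, OAF (0.098) and SULT1A3 (0.098), a sulfotransferase of a family with near-identical copies between which reads may be split. IRS1 was closest to EMP3 (0.066), TMEM61 (0.077) and PHACTR1 (0.114), and EMP3 had 7.72, 3.86 and 4.18 FPKM in white and 10.3, 16.2 and 12.6 FPKM in black skin of pigs 1 to 3, with the highest value in black skin of pig 2 as for IRS1. Of all these mRNAs, PLIN1 and TUSC5 were on the adipocyte list. Among the 5 genes, the distance was smallest between PDE3B and PC (0.178) on this scale, and those from IRS1 to the other genes were 0.534 to 0.911. All these profiles share the 6 libraries and the difference between the skins, so closeness is a description of 6 values. It also depends on the pseudocount, since adding 0.5 FPKM narrows the range of the low genes. With 0.1 added, chosen after seeing the data, the smallest distance among the 5 genes was that of PDE3B and PCK1 (0.078), followed by GHR and PDE3B (0.167), with PDE3B and PC at 0.353. Of the 3 closest mRNAs reported for each gene, 1 was then still among the closest 3 for GHR (PLIN1), 2 for IRS1 and 0 for PDE3B, PC and PCK1.

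Of 7566 lncRNAs, 10 lay within 100 kb of the RefSeq locus of 1 of the 5 genes, 4 of them near IRS1, 2 near PDE3B, 1 near PC, 3 near PCK1 and 0 near GHR. The nearest was TCONS_00042201, at chr15:128243804-128245047 on the minus strand, spanning 1244 bp and ending 798 bases from the lower coordinate of IRS1. It was a lncRNA that the study singled out, so its difference is a description. The study designed a primer pair to amplify it by quantitative PCR, which is copied here and was not aligned to the genome or to IRS1. Both primers are 20 bases long and printed 5′ to 3′ in lower case.
TCONS_00042201 primer 1: actcttgcttgtgtagggcg
TCONS_00042201 primer 2: tacagggaaatggttggggc

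TCONS_00042201 had 0.804, 0.355 and 1.48 FPKM in white and 3.89, 5.21 and 7.16 FPKM in black skin of pigs 1 to 3. The skins did not overlap, and the means were 0.880 ± 0.567 and 5.42 ± 1.65 FPKM (SD, n = 3 each), a 6.16-fold difference against 3.02-fold for IRS1. On the log2(FPKM + 0.1) scale the difference was -2.63 (SE 0.65), and it was among the 0.251% of all lncRNAs that limma called lower, a call from which nothing is read because the lncRNA was chosen for this difference. With any 1 of the 6 samples left out it was not called, and 0 to 2 lncRNAs in all were called lower. Its level was below that of IRS1 in white skin of pigs 1 and 2 and above it in the other 4 samples, and its highest sample was black skin of pig 3 where that of IRS1 was black skin of pig 2. The study's article places it upstream of IRS1, at a shorter distance, and a manuscript in its supplement adds the same orientation. With the coordinates used here both cannot hold. It is on the minus strand and below IRS1, whereas the upstream side of a gene on that strand lies at higher coordinates. The distance given here is to the RefSeq locus, whose table gives no strand for IRS1, and another gene model would give another distance. A separate lncRNA and a longer IRS1 transcript cannot be told apart from these values.

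**Figure D5:**
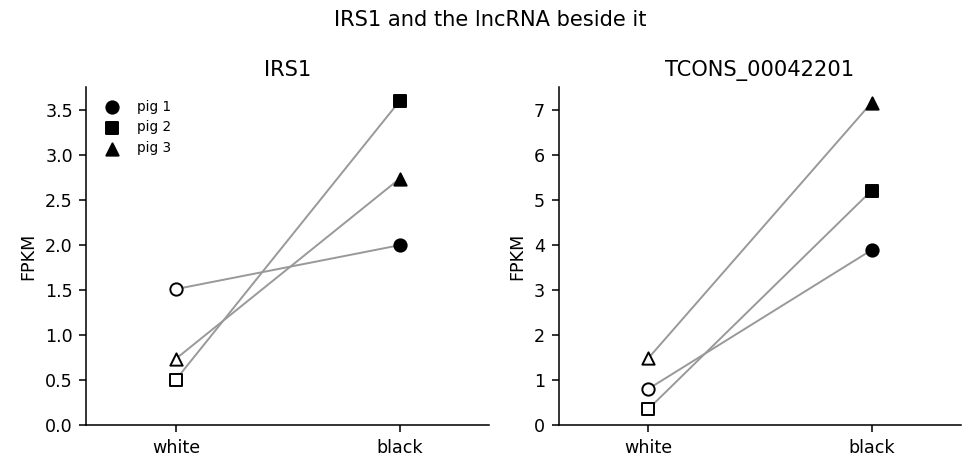
FPKM (linear axes from 0, a scale for each panel) of IRS1 and of the lncRNA TCONS_00042201 in white (open) and black skin (filled), with a line joining the samples of each pig. Both are higher in black skin in all 3 pigs, and the line of pig 1 is nearly flat for IRS1 but not for the lncRNA.

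None of the other 9 lncRNAs was called in either direction (1.08% of all lncRNAs were called higher). TCONS_00046295, on chr17:57987236-57988533 and 50712 bases from PCK1, had all white samples (0.451, 0.646 and 0.230 FPKM) below all black ones (0.704, 1.12 and 0.867 FPKM), as did 5.31% of all lncRNAs. Of the 10, 4 were listed at 0 in at least 1 sample. Among the 3 other lncRNAs near IRS1 and among those near PDE3B and PC, the skins overlapped in every case.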

How the data were processed

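The deposited tables hold FPKM of 14900 mRNAs and 7566 lncRNAs in 6 skin samples, which the authors calculated with StringTie 1.3.3 from poly(A), strand-specific, paired-end reads. The study's methods name TopHat on the Sus scrofa 11.1 genome, whereas the submitters' processing notes list HISAT2 2.0.4. The tables keep mRNAs above 0.5 and lncRNAs above 0.1 FPKM in at least 1 sample. No scaling between samples beyond FPKM is given in the sources used here.

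limma 3.58.1 in R 4.3.3, with its trend option, was fitted to every row of each table after a check on simulated data. A pseudocount of 0.5 FPKM was added to mRNAs, and of 0.1 FPKM to lncRNAs, before taking log2. limma stands in for Cuffdiff, which needs reads. Features with a Benjamini-Hochberg adjusted p below 0.05 and an absolute log2 difference above 1 were called. The pig was left out of the model, as in the study, and was the block of an alternative. The 2 skins with a number come from the same pig by their titles, and their deviations from the skin means correlated across mRNAs (r = 0.21, 0.36 and 0.20 in pigs 1, 2 and 3). Samples are separate animals within a skin.

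Symbols came from the study's supplementary lists for 2308 mRNAs and from a gene name table matched by Ensembl identifier for 10111 more, together 83.3% of the rows. The RefSeq table, which was planned for this step, pairs no Ensembl identifiers. It gave the loci of the 5 genes on Sscrofa11.1. The promoter motif search that was also planned was not run. Besides the 5 genes, the text names the called genes of each pathway list and of the adipocyte list (up to 6 by absolute log2 difference), the 2 of each list with the highest mean FPKM and the 3 mRNAs closest to each of the 5, and says where a gene was picked after its values were seen. Some genes that this rule picks are not reported here. The 5 genes and all lists were chosen with earlier results of these data known. Summaries used Python 3.11.15, NumPy 2.4.6 and pandas 2.3.3. The alternatives left out 1 sample at a time, used the pig as a block, kept mRNAs with a mean of at least 1 FPKM, dropped limma's trend, changed the pseudocount or scaled the samples by their upper quartile or by quantiles. Pseudocounts of 0.1 and 1 for the levels relative to the adipocyte list, and of 0.1 for the distances, were added after seeing the data.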

Additional observations from a re-analysis of the deposited data

How the results depend on the processing

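Limits: the design has 3 pigs, depth is unknown, and the calls depend on single samples more than the directions do. All 5 genes stayed lower in white skin under every alternative run. Over the fits that left out 1 sample, the log2 difference ranged from -2.64 to -1.68 for GHR, from -1.52 to -1.03 for IRS1, from -2.11 to -1.37 for PDE3B, from -2.13 to -1.23 for PC and from -1.59 to -0.98 for PCK1, from -2.24 to -1.44 for the adipocyte median and from -3.06 to -2.16 for TCONS_00042201. With a pseudocount of 0.1, PCK1 differed by -2.11 in place of -1.33, as that pseudocount shrinks low values less. Relative to the adipocyte list, the difference between the skins turned from 0.13 to -0.61 for PCK1 and from 0.23 to -0.082 for IRS1 with a pseudocount of 0.1, chosen after seeing the data. The filter on a mean of at least 1 FPKM removed PCK1.

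The number of the 5 genes called, 3 in the reported fit, was 0 with a pseudocount of 1, 0 after upper-quartile scaling, 0 after quantile normalization, 1 without limma's trend and 0 with any 1 sample left out. All 5 had an unadjusted p under 0.05 in each of these fits, from which nothing is read since they were chosen on this contrast. The number of mRNAs called lower, 539, became 957 with the pig as a replicate block, 281 after upper-quartile scaling and 217 after quantile normalization, while 391, 482, 570 and 483 were called higher in these 4 fits. It was 7 to 550 with 1 sample left out and 28 to 297 for those called higher, with the lowest counts without white skin of pig 2. These scalings moved the median of all mRNAs from -0.31 to -0.12 and -0.03, and the medians of the 5 genes to -1.53 and -1.42. The cause of these shifts was not tested.

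The pig block called 5 genes of growth hormone and IGF signalling in place of 3, 4 of glyceroneogenesis in place of 1, 9 of lipolysis in place of 4 and 11 of the adipocyte list in place of 7, and 7 of triglyceride synthesis and 3 of insulin signalling, in place of 5 and 2. Upper-quartile scaling called 0 insulin, 1 growth hormone, 2 glyceroneogenesis, 2 lipolysis and 3 adipocyte genes, and quantile normalization 0 insulin, 0 growth hormone and 1 lipolysis gene. A mean of at least 1 FPKM left 1 insulin gene and gave 2 of glyceroneogenesis, as did a pseudocount of 0.1. With 1 sample left out the counts were 0 to 4 for insulin, 0 to 2 for growth hormone, 0 to 2 for glyceroneogenesis, 1 to 8 for triglyceride synthesis, 0 to 4 for lipolysis and 0 to 4 for the adipocyte list. The cause was not tested.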
